A study of Homo sapiens with 6 samples.

Results

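The sites described here are the 40286 CTCF binding sites that were called in FT282 cells with an empty vector (EV) and called again after the same line was made to express BORIS. They were found by pairing the 43162 CTCF peaks of EV cells with the 44625 CTCF peaks of BORIS cells wherever both overlapped by at least 1 bp and each had exactly 1 partner. The pairs held 93.3% of the EV list and 90.3% of the BORIS-cell list, out of 111440 peaks in the 3 peak lists of the study. FT282 is an immortalised secretory epithelial line of the human fallopian tube, and both kinds of cells come from a clonal derivative that stably carries EV or BORIS. CTCF was precipitated in both kinds of cells and BORIS in BORIS cells, and RNA was sequenced from both. The title of a sequenced input names FT282 and no vector, and no table of it was used here. There was 1 library for each of these. No value below therefore has a replicate error, no test was possible, and a difference describes these 2 CTCF libraries.

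CTCF is a zinc finger protein that binds a long DNA motif, halts the cohesin ring as it extrudes chromatin loops, and so sets loop ends and insulates genes from enhancers. BORIS, the product of CTCFL, is its paralog, with nearly the same zinc fingers but different ends. It is normally made in the testis and can bind many of the sites that CTCF binds.

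Each deposited CTCF peak carries a score, which is the authors' own value and has no stated unit, so it was used only to order peaks within its own list. The order was written as a rank fraction, from 0 for the weakest peak of a list to 1 for the strongest, and the rank shift of a pair is its rank fraction in BORIS cells minus that in EV cells. The lists differ in length, so a shift of all pairs together is not in itself a change in binding, and classes of sites are read against all pairs. A pair is said to have moved up or down when its rank shift was at least 0.1 in size.

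Promoters of 5 genes with a shared site at their start, by the gene spans of the study, are printed first. For all but GALNT14 they show the DNA around a site that moved. GALNT14 encodes an initiating enzyme of mucin-type O-glycosylation and stands in the study's title. It is shown with 2 pairs that moved up and 2 that moved down, from sites placed inside a promoter window. These were picked for large shifts but not from every chromosome, so larger shifts can exist at promoters that are not printed. The window runs from 250 bases before to 50 after the gene start, in RefSeq sequence of build GRCh38.p14, written 5′ to 3′ on the strand of the gene. Capitals mark matches, on either strand, to 2 short forms of the CTCF core motif, CACNAGNGG and AGGNGGCGC, which can share bases. The windows are chr2:31138391-31138690 on the minus strand for GALNT14 and chr1:169485921-169486220 on the minus strand for SLC19A2, a thiamine transporter gene. On the plus strand they are chr14:55051397-55051696 for MAPK1IP1L, chr5:141172394-141172693 for PCDHB7, a clustered protocadherin, and chr7:149126158-149126457 for ZNF398, a zinc finger gene.
GALNT14: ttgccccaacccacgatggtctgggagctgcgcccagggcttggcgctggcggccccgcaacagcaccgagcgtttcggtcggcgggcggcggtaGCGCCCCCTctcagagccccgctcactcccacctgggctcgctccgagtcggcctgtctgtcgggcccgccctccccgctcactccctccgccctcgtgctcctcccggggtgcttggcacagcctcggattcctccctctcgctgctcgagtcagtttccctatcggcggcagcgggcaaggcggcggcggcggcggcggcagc
SLC19A2: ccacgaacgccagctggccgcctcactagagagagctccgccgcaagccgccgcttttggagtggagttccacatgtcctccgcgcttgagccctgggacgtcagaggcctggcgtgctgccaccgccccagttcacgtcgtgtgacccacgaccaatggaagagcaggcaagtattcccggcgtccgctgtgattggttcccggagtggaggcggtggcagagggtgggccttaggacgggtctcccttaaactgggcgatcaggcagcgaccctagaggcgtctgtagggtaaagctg
MAPK1IP1L: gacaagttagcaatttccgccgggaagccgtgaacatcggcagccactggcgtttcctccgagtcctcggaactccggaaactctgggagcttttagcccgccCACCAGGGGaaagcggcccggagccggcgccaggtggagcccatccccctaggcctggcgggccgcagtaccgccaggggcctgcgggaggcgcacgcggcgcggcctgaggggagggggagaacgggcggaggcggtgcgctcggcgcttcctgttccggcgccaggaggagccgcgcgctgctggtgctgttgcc
PCDHB7: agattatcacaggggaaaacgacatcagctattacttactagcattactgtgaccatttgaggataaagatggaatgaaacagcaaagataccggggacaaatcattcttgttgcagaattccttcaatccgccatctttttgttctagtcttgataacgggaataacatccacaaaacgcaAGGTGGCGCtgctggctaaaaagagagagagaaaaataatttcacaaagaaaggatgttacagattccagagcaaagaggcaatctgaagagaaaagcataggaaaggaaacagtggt
ZNF398: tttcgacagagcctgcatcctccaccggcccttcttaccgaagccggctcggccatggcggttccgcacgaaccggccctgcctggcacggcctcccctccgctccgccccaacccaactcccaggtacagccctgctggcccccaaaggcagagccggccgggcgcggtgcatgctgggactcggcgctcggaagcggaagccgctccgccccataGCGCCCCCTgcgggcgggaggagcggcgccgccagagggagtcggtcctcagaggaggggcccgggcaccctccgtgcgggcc

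SLC19A2 moved up by 0.265 in rank fraction and its window holds no match to either form. MAPK1IP1L moved up by 0.250, with a match to the first form. PCDHB7 shifted by -0.229 and ZNF398 by -0.190, and both hold the second form, as GALNT14 does. In all, 370 genes had the position of an EV peak inside their window and a span of like length in both annotations, within 50 bp. The first form was in 9.46% of these windows against 3.63% of all 27284 promoters, and the second in 25.1% against 4.81%. Among windows whose site moved up, the first form was in 3 of 62, among those that shifted by less than 0.1 in 31 of 289, and among those that moved down in 1 of 19. The second form was in 13 of 62, 73 of 289 and 7 of 19. Where a match was present, it lay within 30 bp of the EV position in 21 of 35 windows for the first form and 67 of 93 for the second. A match is a description of letters and not a measured binding site, and a window without one says only that these letters are not in it. GALNT14 was not counted because its span was 228262 bp in the study's table and 251659 bp in RefSeq, so its peaks were not placed within the printed window.

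The labels were checked against the RNA before use. CTCFL, the gene introduced, was listed at 0.00532 FPKM for EV and 53.3 FPKM for BORIS cells, while CTCF was at 21.1 and 20.8 FPKM. Of 8 secretory markers of the tube 5 reached 1 FPKM in either library, including the transcription factor PAX8, at 71.3 FPKM for EV and 72.5 for BORIS, and KRT7 at 1055 and 885 FPKM. Defining markers that did not were OVGP1 at 0.0951 and 0.120 FPKM, EPCAM at 0.732 and 0.574 FPKM and the oestrogen receptor ESR1 near 0. The ciliated cell factor FOXJ1 is listed at 0 in both, and 1 of 4 ciliated markers reached 1 FPKM. Mesenchymal VIM stood at 1366 and 1500 FPKM, and 3 of 4 fibroblast markers reached 1 FPKM, as did 1 of 2 endothelial and 1 of 2 leukocyte markers. Their part in the results below was not tested.

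The pairing was close to complete for strong peaks. Peaks in pairs had a median rank fraction of 0.530 in the EV list and 0.545 in the BORIS-cell list, whereas the remaining peaks stood at 0.0794 and 0.0866. Of the rest, 2490 EV peaks and 4085 BORIS-cell peaks had no partner, and 386 and 254 had a partner outside a single pairing. The rule was not sensitive to its 1 bp limit, since the smallest overlap of a pair was 81 bp and the nearest unpaired neighbours lay 114 bp apart. The 3 pairs just inside the rule overlapped by 81, 82 and 83 bp and shifted by 0.0635, 0.00437 and 0.00187. Just outside it were peaks 114, 115 and 129 bp apart, with rank fractions of 0.0859 and 0.158, 0.0531 and 0.00647, and 0.0898 and 0.000202.

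The order of the shared sites was largely kept. Across the 40286 pairs, Pearson's r between both rank fractions was 0.960, at 0.959 for pairs under a BORIS peak and 0.956 for the others. These points share 2 libraries, and r is given as a description. The median rank shift was 0.0119, with quartiles of -0.0335 and 0.0621. Of all pairs, 5166 moved up (12.8%) and 2534 moved down (6.29%). When the pairs were ranked among themselves, so that both orders had the same length, the split evened out to 3937 up (9.77%) and 3778 down (9.38%), and the median shift was -0.000248. The excess of upward moves over downward moves is therefore not read as a gain of binding.

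**Figure D1:**
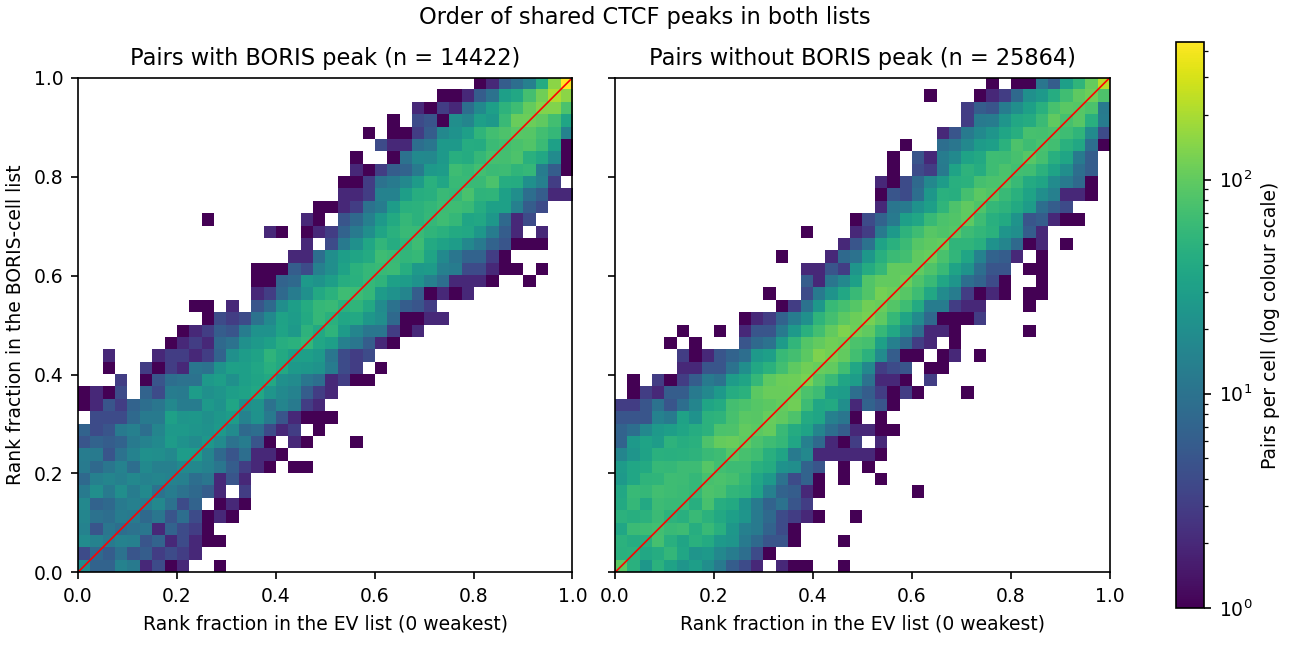
Rank fraction of each shared CTCF peak in the EV list (horizontal) against that in the BORIS-cell list (vertical), for 14422 pairs with a BORIS peak and 25864 without, with the number of pairs per cell on a log colour scale and a red line of equal rank. Both clouds follow the line (r = 0.959 and 0.956), and pairs with a BORIS peak are denser at high rank.

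The median rank fraction of sites that moved up went from 0.287 in EV cells to 0.429 in BORIS cells. That of sites that moved down went from 0.471 to 0.332, so both groups began below the 0.530 of all pairs. The 854 that moved down under a BORIS peak began at 0.798, and the 1680 others at 0.346. These groups were formed on the shift, of which the EV rank is 1 side. A lower start of sites that moved up is therefore partly set by the choice. A BORIS peak lay over 35.3% of the sites that moved up, 33.7% of those that moved down and 35.8% of all pairs, so the share was nearly equal. Location differed more: 18.2% of the sites that moved up lay within 1 kb of an end of a gene span, against 8.25% of those that moved down and 11.2% of all pairs.

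Sites under a BORIS peak were strong CTCF sites to begin with. A pair counted as under a BORIS peak when its CTCF peak in BORIS cells overlapped one of the 23653 BORIS peaks by at least 1 bp, which held for 14422 pairs (35.8%). Their median EV rank fraction was 0.680, against 0.448 for the 25864 others. Over all strengths the median shift was 0.00801 with a BORIS peak and 0.0140 without. Of the pairs with a BORIS peak 12.7% moved up and 5.92% moved down, and of the others 12.9% and 6.50%. Both splits are near the shares of all pairs, and strength differs between these classes, so pairs were next divided by strength.

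After a division by strength, the shift with and without a BORIS peak depended on where a site stood in the order. Pairs were sorted by the mean of both rank fractions, so that neither list alone set the order, and divided at the median into 20143 weaker and 20143 stronger pairs. Among weaker pairs, 23.4% of the 4812 with a BORIS peak moved up (95% Wilson interval 22.2 to 24.6%, which covers counting error only) and 4.03% moved down. Of the 15331 weaker pairs without one, 14.9% moved up (14.4 to 15.5%) and 8.32% moved down. Their median shifts were 0.0375 and 0.0151. Weak sites under a BORIS peak already ranked higher in EV cells, with a median of 0.326 against 0.286, and the gap was wider in BORIS cells, at 0.371 against 0.300. With ranks among the pairs alone, 16.2% of the former moved up and 6.71% down, while the balance of the latter turned, to 9.41% up and 11.9% down.

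Among stronger pairs the difference ran the other way. Of the 9610 with a BORIS peak, 7.29% moved up and 6.87% moved down (6.38 to 7.39%), with a median shift of -0.000758. For the 10533 without one, 9.96% moved up and 3.84% moved down (3.49 to 4.22%), with a median shift of 0.0129. With ranks among the pairs alone, the shares with a BORIS peak were 7.29% up and 10.1% down, and without one 9.61% and 6.33%. Stronger pairs with a BORIS peak still ranked higher in EV cells, with a median of 0.804 against 0.731. They therefore had less room to move up and more to move down, and the part of this in the difference was not tested. The strongest sites have little room to move up in either class.

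In 10 equal parts by mean rank, the difference between medians with and without a BORIS peak passed from above to below 0. It was 0.0276 in the weakest part, 0.0465 in the next, then 0.0360, 0.0196 and 0.00870. In the upper 5 parts it was -0.00476, -0.0158, -0.0227, -0.0199 and -0.00625. The contrast was widest in part 2, with mean ranks from 0.157 to 0.254. There 34.0% of the 808 pairs with a BORIS peak moved up (30.8 to 37.4%) and 5.07% moved down, against 21.8% (20.4 to 23.2%) and 12.3% of the 3221 without. In part 8, with mean ranks from 0.725 to 0.813, 10.7% of the 1920 pairs with a BORIS peak moved up and 12.2% moved down, against 14.4% and 5.41% of the 2108 without. Without a BORIS peak the medians stayed between 0.00539 and 0.0173 in all 10 parts, and with one they ranged from -0.00675 to 0.0632.

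**Figure D2:**
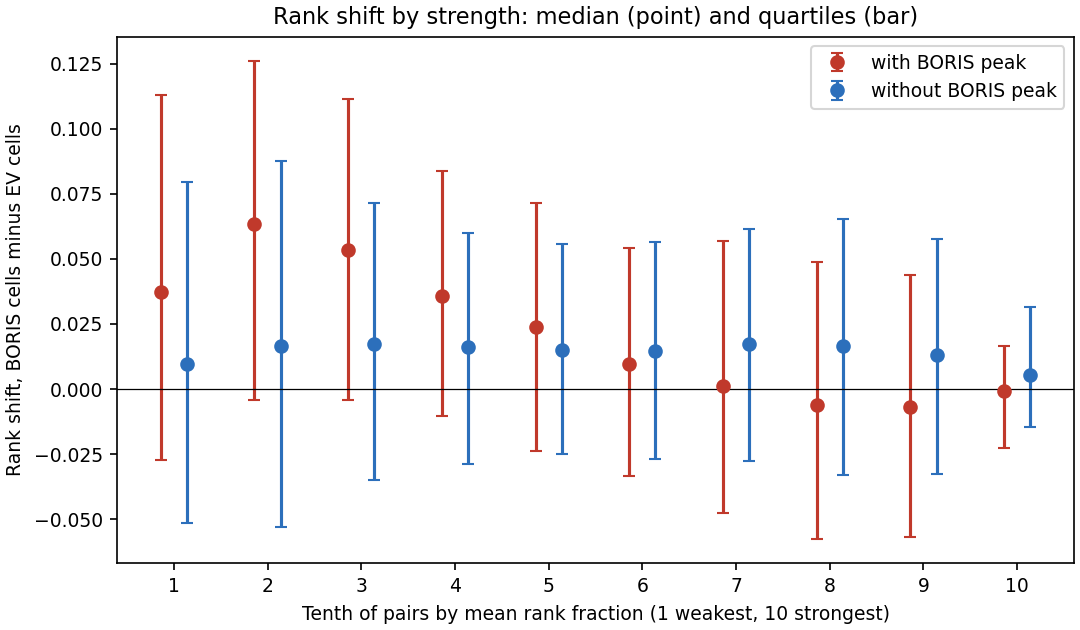
Rank shift (BORIS cells minus EV cells) in 10 equal parts of the shared pairs by mean rank fraction, from 1 (weakest) to 10 (strongest), with points for the median and bars for the quartiles. Pairs with a BORIS peak (red) have higher medians than the others (blue) in parts 1 to 5 and lower medians in parts 6 to 10, with the widest gap in part 2 (0.0632 and 0.0167).

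The height of the BORIS peak itself went with a small rise in the median shift of weaker pairs. From the lowest to the highest of 5 equal groups of the BORIS list by score, the median shift of weaker pairs was 0.0291, 0.0340, 0.0389, 0.0417 and 0.0436. For stronger pairs it was -0.000576, 0.00137, 0.00396, 0.00205 and -0.00660, with no steady order. The share of weaker pairs that moved up was 20.0% in the lowest group (17.2 to 23%), then 22.9%, 21.6%, 26.2% (23.8 to 28.8%) and 24.8% (22.2 to 27.6%). These intervals cover counting error only, over sites of the same libraries, so their overlap is not a test of a difference between groups.

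The distance between the BORIS position and the CTCF position separated the sites more. The last column of each list gives a position inside the peak. BORIS and CTCF positions lay within 20 bp of each other in 8978 pairs, of which 10.3% moved up, with a median shift of 0.00297. At 21 to 50 bp 13.4% of 4054 pairs moved up, and at 51 to 100 bp 20.6% of 679. Over 100 bp apart, 30.2% of 711 pairs moved up (27.0 to 33.7%) and 2.67% moved down, with a median shift of 0.0542 and a median width gain of 72 bp. The order held among weaker pairs, where 20.1%, 25%, 28.2% and 32.2% moved up from the nearest to the farthest class. Among stronger pairs the same shares were 6.44%, 7.10%, 11% and 26.6%. Starting strength fell over the same classes, with median EV rank fractions of 0.711, 0.665, 0.458 and 0.374 from the nearest to the farthest. Among weaker pairs these medians were 0.359, 0.319, 0.267 and 0.215, and among stronger pairs 0.808, 0.804, 0.765 and 0.739. The part of starting strength in this order was not tested.

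Some BORIS peaks covered more than 1 shared CTCF site. There were 97 such peaks over 196 pairs, of which 27.6% moved up (21.8 to 34.2%), with a median shift of 0.0301. Of the 14226 pairs alone under a BORIS peak, 12.5% moved up. The 196 pairs began much lower, with a median EV rank fraction of 0.327 against 0.684. All sites of a peak shifted to the same side of 0 under 52 of the 97 peaks (53.6%). Since 67.3% of the 196 shifts were above 0, many peaks would show this without any link between their sites, and it is not read as agreement. The pairs under 1 BORIS peak are not independent of each other.

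Gene ends had larger upward shifts than other locations, from a lower place in the order. The 4496 pairs with the middle of the EV peak no more than 1 kb from an end of a gene span had a median shift of 0.0313, and 20.9% moved up (19.7 to 22.1%) while 4.65% moved down. The 16201 pairs inside a span had a median of 0.00980, with 12% up (11.6 to 12.6%) and 6.32% down. For the 19589 pairs outside spans the median was 0.00975, with 11.6% up (11.2 to 12.1%) and 6.64% down. Gene-end pairs had a median rank fraction of 0.458 in EV cells, against 0.518 inside and 0.557 outside spans. In BORIS cells the medians were 0.502 at gene ends, 0.530 inside and 0.571 outside spans. With ranks among the pairs alone, 16.0% of gene-end pairs moved up and 6.65% moved down, against 9.06% and 9.36% inside and 8.93% and 10.0% outside spans. Gene ends also held more BORIS, since 72.3% of those pairs lay under a BORIS peak, against 32.6% inside and 30.1% outside spans.

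The larger upward shift of gene ends was also seen without a BORIS peak. At gene ends, 20.5% of the 3251 pairs with a BORIS peak moved up and 21.8% of the 1245 without one, with median shifts of 0.0309 and 0.0321. Strength differs between these classes, so they were divided again. Of the weaker gene-end pairs, 27.9% of 1694 with a BORIS peak moved up and 2.36% moved down, against 22.9% (20.2 to 25.8%) and 5.72% of 856 without. The median shifts were 0.0528 and 0.0310. Of the stronger gene-end pairs, 12.6% of 1557 with a BORIS peak moved up (11 to 14.3%) and 19.5% of 389 without one (15.9 to 23.8%). The median EV rank fractions of these stronger pairs were 0.758 and 0.703, so strength still differed between them.

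Away from gene ends the pattern by strength was the same in kind. Weaker pairs inside spans moved up in 21.7% of 1635 cases with a BORIS peak and 14.5% of 6716 without. Outside spans the shares were 20.2% of 1483 and 14.4% of 7759. Among stronger pairs they were 5.87% and 9.67% inside spans, and 6.60% and 9.53% outside.

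**Figure D3:**
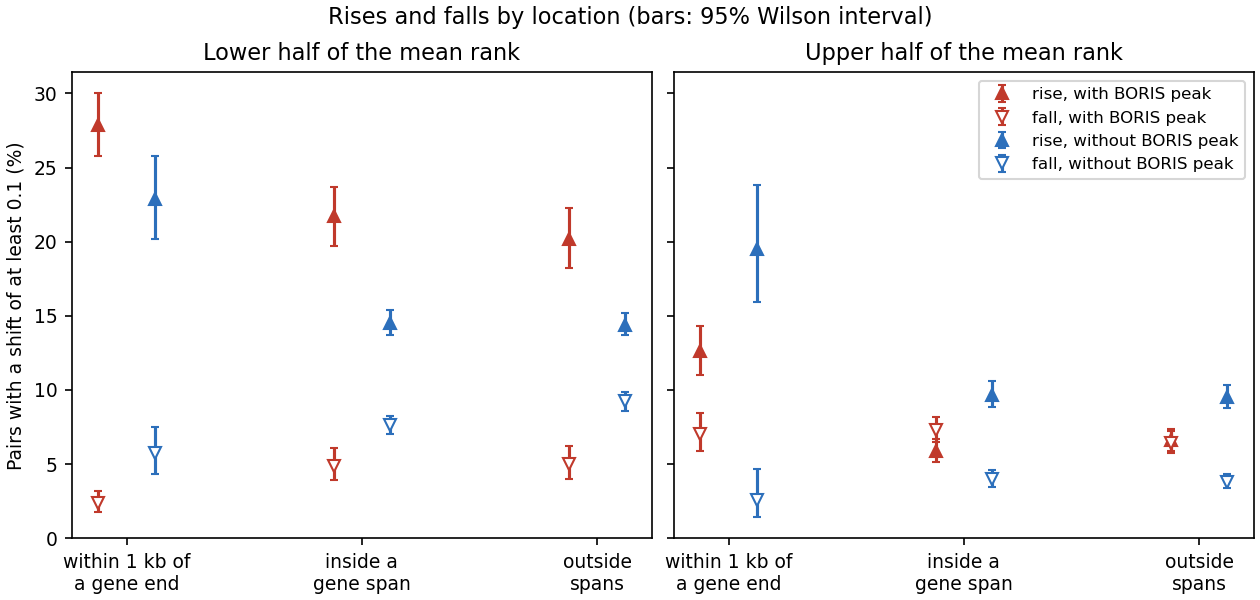
Share of shared pairs that moved up (filled, pointing up) or down (open, pointing down) by at least 0.1 in rank fraction, by location, with red for pairs under a BORIS peak, blue for others and bars for the 95% Wilson interval. Left, weaker pairs: gene ends under a BORIS peak reach 27.9%. Right, stronger pairs: gene ends without a BORIS peak stand at 19.5% and those with one at 12.6%.

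Within gene ends, sites near the start had the larger shifts, although they ranked lower than sites near the stop in both lists, with medians of 0.420 and 0.471 against 0.585 and 0.603. RefSeq gave a strand for 3316 of the 5347 genes linked to a pair (62.0%). The 2458 pairs near a gene start had a median shift of 0.0365, with 23.3% up (21.7 to 25%) and 4.35% down. The 695 near a gene stop alone had a median of 0.0124, with 13.5% up (11.2 to 16.3%) and 5.90% down, close to the shares of all pairs. A BORIS peak lay over 80.5% of the former and 48.9% of the latter. At starts, 21.9% of 1979 pairs with a BORIS peak moved up and 29.0% of 479 without one (25.1 to 33.2%), whose median EV rank fraction was lower at 0.305 against 0.454.

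Chromosomes with many gene-end sites had higher median shifts. Chromosome 22 stood highest at 0.0290, with 20.3% of its 774 pairs up, followed by 17 at 0.0213, 20 at 0.0202, 19 at 0.0201 and 16 at 0.0200. The lowest were X and 13, both at 0.00131, then 4 at 0.00571 and 2 at 0.00572. Over the 23 chromosomes, Pearson's r between the median shift and the share of pairs at gene ends was 0.793, and 0.624 for the median of pairs outside spans. The chromosomes share both libraries, the part of their base composition was not tested, and r is a description.

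Neighbouring sites moved together only weakly. For next neighbours under 2 kb apart, r between shifts was 0.0963 over 1962 neighbour pairs, and it was 0.0797, 0.0652 and 0.0909 at 2 to 10 kb, 10 to 50 kb and over 50 kb. Where both neighbours passed 0.1, they moved the same way in 83 of 110 cases under 2 kb (75.5%) and in 66.6% of cases over 50 kb. Since 5166 of all pairs moved up and 2534 moved down, unlinked sites would also often move the same way. These shares are therefore not read as agreement.

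Most shared peaks were a little wider in BORIS cells. The median width was 382 bp in EV cells and 410 bp in BORIS cells, the median change was 28 bp with quartiles of -17 and 77 bp, and 66.2% of pairs were wider. Width followed strength within a list, with r of 0.796 for EV and 0.755 for BORIS cells, and r between both widths of a pair was 0.822. The caller, its threshold and the depth are not known for either list.

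Width and rank moved together. In 5 equal groups from the most downward to the most upward shift, the median width change was 3, 18, 27, 34 and 55 bp, and r between shift and width change over all pairs was 0.224. Pairs that moved up gained 62 bp in the median and 84.0% were wider. Pairs that moved down lost little, at -8 bp, and 44.3% of them were wider. Sites that moved up gained 73 bp under a BORIS peak and 57 bp elsewhere. At gene ends the median gain was 48 bp, with 74.9% wider, against 27 bp inside and 25 bp outside spans.

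**Figure D4:**
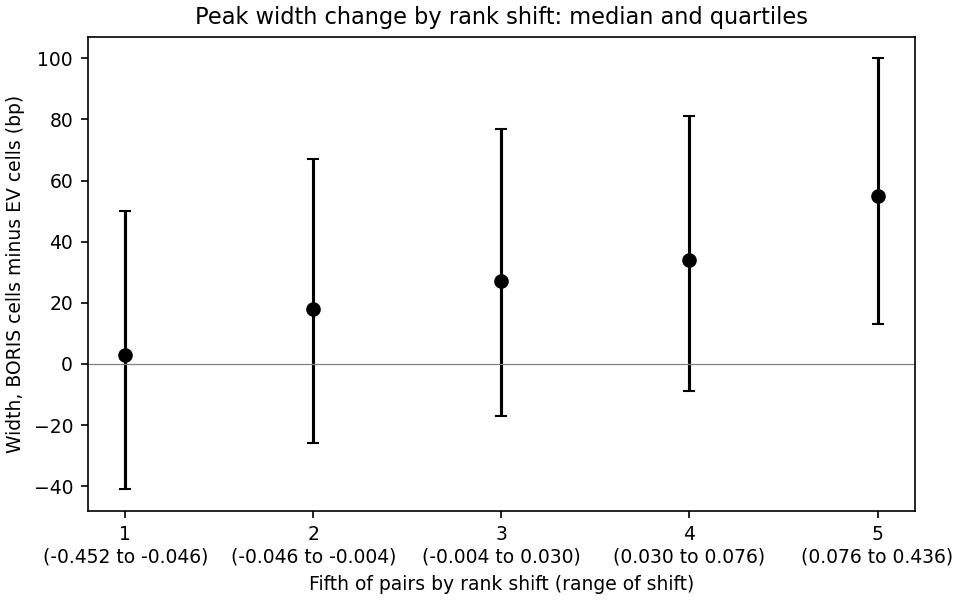
Change in peak width (BORIS cells minus EV cells, bp) in 5 equal groups of shared pairs by rank shift, with points for the median, bars for the quartiles and the range of shift under each group. The median rises over the groups from 3 to 55 bp, while the quartiles of neighbouring groups overlap.

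The narrowest EV peaks were the ones that moved up most often. Of the 8057 pairs with an EV width of 151 to 255 bp, 25% moved up and 7.70% moved down, with a median shift of 0.0339. Of the 8058 with an EV width of 515 bp or more, 5.62% moved up and 6.74% moved down, with a median of -0.00258. These groups were formed on the EV list alone, which is also 1 side of the shift.

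The position inside the peak hardly changed. The distance between both positions of a pair had a median of 11 bp, 95% of pairs lay within 44 bp, and 0.340% were over 100 bp apart. The median was 10 bp with a BORIS peak and 12 bp without, and 0.506% and 0.247% of pairs were over 100 bp apart. Weak sites were placed less exactly, with a median of 22 bp in the weakest of the 10 parts and 7 bp in the strongest.

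Genes with higher RNA in BORIS cells had shared sites with larger upward shifts, which began lower in the EV list. Over the 27 genes with a log2 ratio of FPKM + 1 of at least 1, 32 shared sites lay at gene ends and 100% of them were under a BORIS peak. Of these, 14 moved up (43.8%, 28.2 to 60.7%) and 0 moved down (at most 10.7%), with a median shift of 0.0821 and a median width gain of 98 bp. Their median rank fraction was 0.386 in EV cells and 0.488 in BORIS cells, against 0.447 and 0.489 at genes with a ratio between -0.5 and 0.5. At the latter genes, 20.1% of 3172 sites moved up (18.8 to 21.5%), with a median of 0.0307. At genes with a ratio of -0.5 or less, 17.8% of 45 did (9.29 to 31.3%), with a median of 0.0350. Between 0.5 and 1 the share was 24.2% of 128 sites. A BORIS peak lay over 90.6% of these 128 sites, 77.5% of the 3172 and 64.4% of the 45, so BORIS overlap also differs between the ratio classes. FOXA3 and NDUFA4L2, both among the 27 genes, were not marked as higher in the authors' deposited table. The RNA libraries were made by 1 of 2 kits, and the kit of each is not given in the sources used here, so a kit difference and BORIS cannot be told apart.

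The authors' own marks of RNA difference separated the sites less. The authors' deposited table marked 5.81% of 13297 tested genes as higher and 6.64% as lower in BORIS cells. CTCFL, the gene introduced, was not marked there, although it was listed at 0.00532 FPKM for EV and 53.3 FPKM for BORIS cells. At ends of 359 genes marked higher in the authors' deposited table, 25.1% of 407 sites moved up (21.1 to 29.5%) and 4.42% moved down. At 207 genes marked lower there, 21.5% of 223 sites moved up (16.6 to 27.4%) and 2.69% moved down. Sites at unmarked genes with at least 1 FPKM moved up in 20.2% of 2850 cases, and at genes under 1 FPKM in both libraries in 22.4% of 1570. These intervals overlap, but they cover counting error only and their overlap is not a test. Of the sites of the 4 groups, 89.4%, 65.9%, 77.3% and 61.5% lay under a BORIS peak.

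The GALNT14 gene end held 2 shared sites under 1 BORIS peak, itself at a rank fraction of 0.742 in the BORIS list. The site at chr2:31360882-31361101 (hg19, as are all peak coordinates here) went from a rank fraction of 0.236 with EV to 0.486 in BORIS cells and from 220 to 419 bp wide. Its neighbour at chr2:31361422-31361826 went from 0.291 to 0.478 and from 405 to 522 bp. The RNA of GALNT14 was at 0.141 and 8.16 FPKM. Both sites lay within 1 kb of the same end of the GALNT14 span, the first inside the span and the second beyond it.

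GALNTL1, a relative of GALNT14, had 1 site that went from 0.00694 to 0.280, among the weakest EV peaks to start with. GALNT10 went from 0.265 to 0.384, and GALNT6, without a BORIS peak, from 0.549 to 0.572. Of the 19 GALNT genes 4 had a shared site at an end, and 4 of their 5 sites moved up (80.0%, 37.6 to 96.4%), beside 20.9% of all gene ends. Their median shift was 0.187 beside 0.0313 for all gene ends, from a median EV rank fraction of 0.265 against 0.458. Both GALNT14 sites, which share a BORIS peak, are among the 4 and are not independent of each other.

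Some further genes with higher RNA, picked after their values were seen, also had sites that began low in the EV list. This was not general, as the EV rank fractions of the 32 sites ran from 0.00694 at GALNTL1 to 0.961 at ABCA3, with a median of 0.386. At ANO5, which encodes a membrane protein of the anoctamin family, the site at chr11:22213842-22214020 went from 0.0685 to 0.435. At GABRA5, a GABA receptor subunit gene, the site at chr15:27112098-27112262 went from 0.0147 to 0.353 and from 165 to 354 bp wide, under a BORIS peak at 0.982 of its list. ADRA2C, an adrenergic receptor gene listed at 0 FPKM for EV and 1.23 FPKM for BORIS cells, went from 0.0972 to 0.373.

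The site of TFPI2, a protease inhibitor gene, went from 0.0582 to 0.285. CLGN, a testis chaperone gene, had 2 sites under 1 BORIS peak, of which the stronger went from 0.292 to 0.508 and the weaker from 0.0801 to 0.0526. ITGA4, an integrin subunit gene, went from 0.501 to 0.674 and the protease inhibitor gene SERPINE2 from 0.308 to 0.446. Higher RNA was not always paired with an upward shift. STEAP1 and STEAP2, metalloreductase genes, went from 0.788 to 0.742 and from 0.532 to 0.501 although the authors' deposited table marked both as higher, and PILRA went from 0.605 to 0.576.

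**Figure D5:**
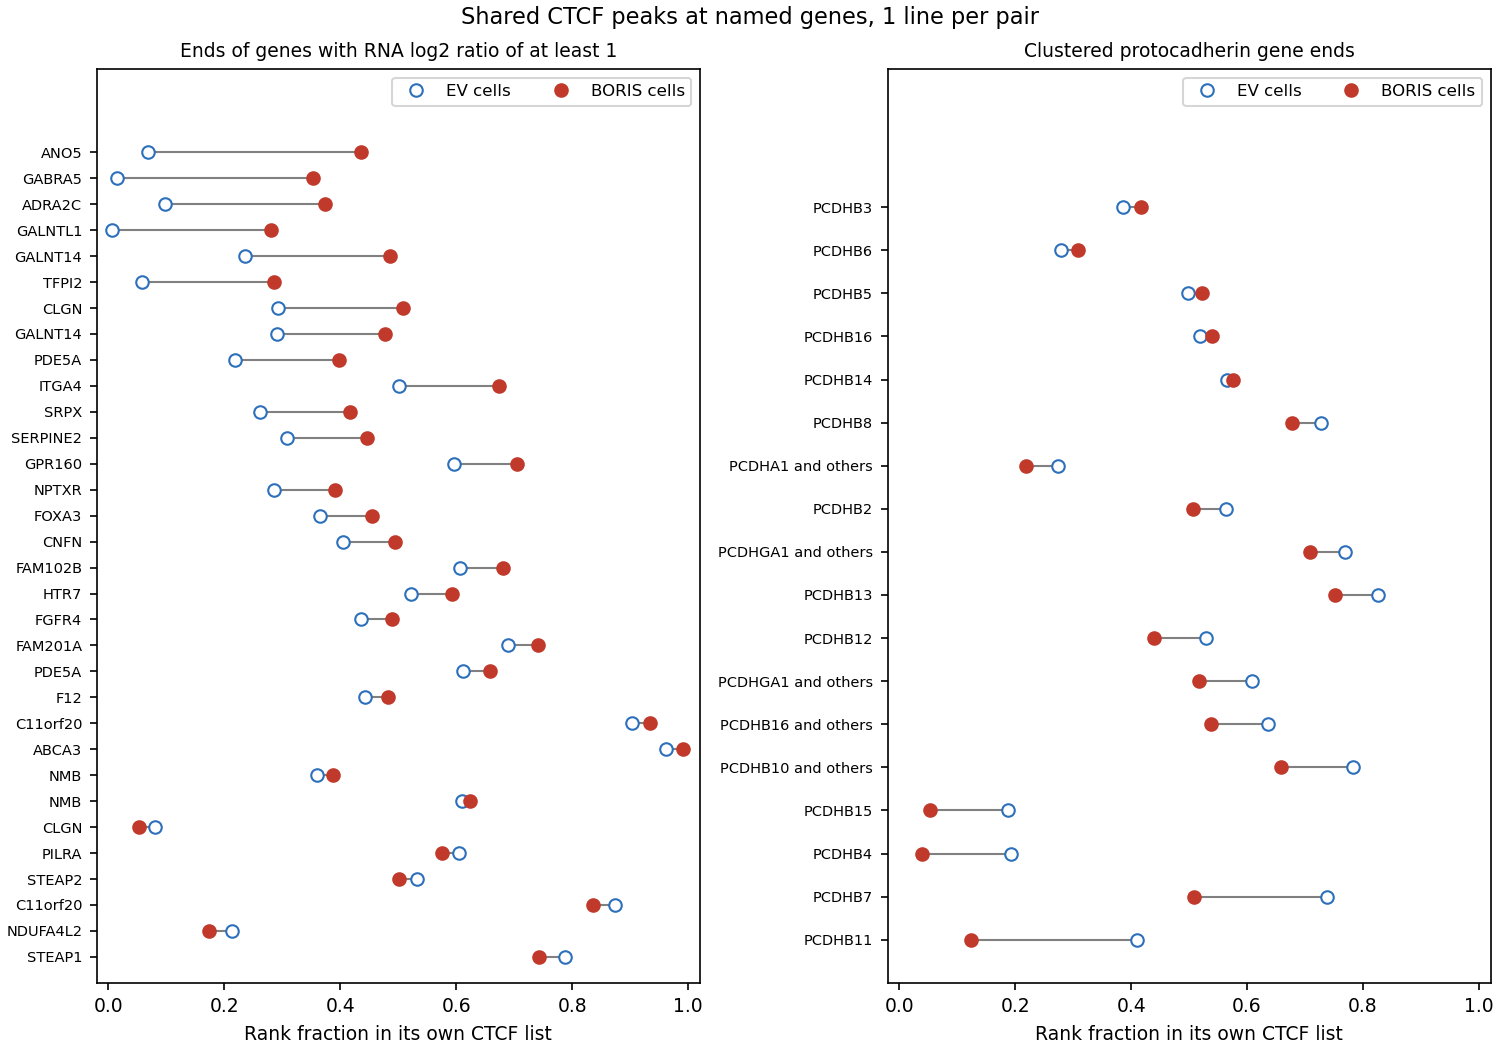
Rank fraction of shared CTCF peaks in EV cells (open blue) and BORIS cells (filled red), 1 line per pair, for 32 sites at ends of genes with an RNA log2 ratio of at least 1 (left) and 18 sites at ends of clustered protocadherin genes (right). On the left 14 sites moved up by at least 0.1 and 0 moved down. On the right 0 moved up and 5 moved down.

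The clustered protocadherins, cell adhesion genes of the nervous system whose promoters are chosen by CTCF and looping, ran opposite to other gene ends. Of their 18 shared sites, all in a single locus of chromosome 5, 0 moved up and 5 moved down (27.8%), beside 20.9% and 4.65% for all gene ends. With ranks among the pairs alone, 0% moved up and 44.4% moved down. Shifts were below 0 at 13 sites and above 0 at 5, with a median of -0.0678 and a highest value of 0.0315 at PCDHB3. The 5 that moved down included PCDHB11, from 0.411 to 0.124, PCDHB7, from 0.737 to 0.509, and PCDHB4, from 0.193 to 0.0391. PCDHB15 went from 0.187 to 0.0526, and a site between PCDHB9 and PCDHB10 from 0.783 to 0.659.

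Only 5 of the 18 lay under a BORIS peak (27.8%), against 72.3% of all gene ends. In the printed PCDHB7 window the EV position lies 66 bases before the start. Most of these sites belong to the B cluster, and 2 lie at ends shared by the overlapping spans of the gamma genes. Sites of 1 locus share their surroundings, so the 18 are not independent of each other.

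Genes of CTCF and its cohesin partners had 7 shared sites, of which 2 moved up (28.6%, 8.22 to 64.1%) and 0 moved down, near the 20.9% and 4.65% of all gene ends, with a median shift of 0.0849. STAG1 and STAG2 encode alternative subunits of cohesin. A weak STAG1 site went from 0.0274 to 0.245 without a BORIS peak, and the STAG2 site from 0.527 to 0.645 with one. The site at the end of CTCF itself went from 0.391 to 0.474, and that of the acetyltransferase gene ESCO1 from 0.663 to 0.655. At the endogenous CTCFL locus, 4 shared sites within 10 kb shifted by 0.0128, 0.0664, 0.149 and -0.0220, and 0 of them lay under a BORIS peak in this line.

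Imprinted genes, where CTCF is known to bind one parental allele at H19, went both ways. Of 11 sites at 10 genes 3 moved up (27.3%, 9.75 to 56.6%), near the 20.9% of all gene ends, and 2 moved down (18.2%) beside 4.65%, with a median of -0.000441. The H19 site went from 0.405 to 0.446. UBE3A, a ubiquitin ligase gene, had 1 site that went from 0.181 to 0.393 under a BORIS peak and 1 that went from 0.264 to 0.214 without one. The cell cycle factor gene PLAGL1 likewise had a site that went from 0.0685 to 0.280 with a BORIS peak and 1 that went from 0.747 to 0.693 without. MAGEL2 went from 0.521 to 0.296 and the site shared by PEG10 and SGCE from 0.446 to 0.322.

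For the remaining lists, the shares of all gene ends are again 20.9% up and 4.65% down. HOX genes, which set body position, had 8 sites with a median shift of 0.0409, of which 0 moved up and 0 moved down. Cytokine and NF-kB target genes had 10 sites with a median of 0.0654, of which 2 moved up (20.0%, near all gene ends), at TNFAIP3 from 0.576 to 0.711 and at PTGS2 from 0.334 to 0.441. Matrix and contractile genes had 18 sites, 5 of which moved up (27.8%) and 1 down (5.56%), the last at FBLN1 from 0.249 to 0.0984.

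Ribosomal protein genes had 35 sites, 3 up (8.57%) and 6 down (17.1%), with a median shift of 0.000213 beside 0.0313 for all gene ends. These sites ranked high in both lists, with medians of 0.652 and 0.646, and 88.6% lay under a BORIS peak. Zinc finger genes named ZNF had 95 sites with 20.0% up and 7.37% down, near the shares of all gene ends. Cancer-testis genes had 2, at PRAME and CT45A1, and neither moved. All 10 lists are described only, since they were written with earlier results of these data known.

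The largest upward shift of all pairs was at chr7:4923256-4923633 beside PAPOLB, a testis poly(A) polymerase gene, from 0.273 in EV cells to 0.710 in BORIS cells and from 378 to 647 bp wide. It lay under a BORIS peak at 0.964 of its list. The next with a BORIS peak were EMP2 from 0.0685 to 0.441, ANO5, a site near ZNF689 from 0.0685 to 0.417, and GABRA5. Of these 5, 4 lay within 1 kb of a gene end. Without a BORIS peak the largest were near RXFP1 from 0.0359 to 0.396, at DAAM2 from 0.137 to 0.496, inside RPL35 from 0.124 to 0.459, near C15orf39 from 0.0147 to 0.340 and at PTPRE from 0.638 to 0.957.

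The largest downward shifts lay far from gene ends and had no BORIS peak. The site at chr4:172955222-172955625 inside GALNTL6 went from 0.617 to 0.165 and from 404 to 197 bp, 220849 bp from the nearest gene end. A site nearest to FLRT2, 410667 bp away, went from 0.459 to 0.0178, and further sites nearest to LOC729862, ZNF648 and SEL1L went from 0.451 to 0.0726, 0.391 to 0.0178 and 0.479 to 0.117. With a BORIS peak, the largest was at RPL32P3, a ribosomal protein pseudogene, at chr3:129118279-129118768, from 0.931 to 0.607. Its width was 490 bp in EV cells and 486 bp in BORIS cells, under a BORIS peak near the top of its list. Sites nearest to TECRL, from 0.905 to 0.587, and FLJ42709, from 0.888 to 0.614, also began among strong sites.

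The largest gains in width were not the largest shifts. A site inside HEXIM1, a regulator of transcription elongation, went from 410 to 1291 bp while its rank fraction stood at 0.818 and 0.815. A site near PAX2, a developmental transcription factor gene, went from 205 to 943 bp and from 0.187 to 0.426, and 1 near SLC6A10P from 255 to 942 bp and from 0.0811 to 0.137. The largest losses were near VENTXP1 from 750 to 306 bp, near C12orf33 from 804 to 404 bp and near OR6A2 from 942 to 551 bp.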

How the data were processed

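The tools named in the submitters' processing notes are Cufflinks 2.0.0, Bowtie and TopHat2, with build hg19 and no role for each, and the peak caller is not given in the sources used here. The deposited peak lists give a start, an end, a score with no stated unit and a position inside the peak, 1 library each. The authors' deposited expression table gives FPKM values, and its marks rest on the authors' p-values and q-values. Read depth is unknown, and 0 columns of other samples were present. The 28 rows with unusable names were left out when the nearest gene was named, but their spans were kept for the location classes. Gene spans are those of the deposited table, and coordinates are 1-based.

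From these, rank fractions (ties averaged), one to one pairs, location classes by the EV peak centre, widths, positions and log2 ratios with a pseudocount of 1 FPKM were computed with Python 3.11.15, pandas 2.3.3 and numpy 2.4.6. RefSeq strands and promoters were matched by symbol. The computation was tested on simulated peak lists with known shifts. Members, gene lists and motifs were chosen with earlier results of these data known. Named sites were those within 10 kb of GALNT14 and CTCFL, the 5 largest shifts each way with and without a BORIS peak, the extremes of each list, and the 3 largest width gains and losses. The 3 strongest sites in both lists were also named by this rule, near TNKS, ANXA9 and CCDC144B, and hardly shifted. The other genes with higher RNA, promoters and list members were picked after their values were seen. Alternatives changed the pairing, ranking, BORIS overlap, distance, spans and threshold.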

Additional observations from a re-analysis of the deposited data

How the results depend on the processing

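No paired analysis was possible because each condition held 1 library. The median shift of all pairs, 0.0119, was -0.000248 with ranks among the pairs alone and 0 with lists of equal length, so its direction rests on the ranking. The median with a BORIS peak minus that without, -0.00600 over all pairs, was -0.000248 with ranks among the pairs, -0.0107 more than 1 kb from gene ends and -0.00125 within 1 kb. It turned to 0.00156 at middle ranks, 0.00197 within 10 parts by mean rank and 0.00612 within 10 parts by EV rank. The divided comparison, added after seeing the data, kept its direction in all alternatives run. For weaker pairs, 0.0224, it was 0.0172 with reciprocal BORIS overlap, 0.0160 away from gene ends and 0.0165 when divided by the rank in BORIS cells. For stronger pairs, -0.0136, it was -0.0117 with ranks among the pairs, -0.00950 with reciprocal BORIS overlap, -0.0115 with the upper BORIS peaks, -0.0227 at gene ends, -0.0110 divided by the EV rank and -0.0163 by the rank in BORIS cells. Gene ends minus other pairs, 0.0215, was 0.0159 with a 5 kb limit and 0.0283 for pairs with a BORIS peak. The width change of 28 bp was 25 bp for pairs that shifted by under 0.05. The 5166 upward and 2534 downward moves became 12098 and 7424 at a threshold of 0.05, and 531 and 229 at 0.2. The cause of these changes was not tested. With 1 library each and unknown depth, how far 2 libraries of 1 condition would differ in rank or width is not known.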
